A study of Mus musculus with 2 samples.

Results

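Fibroblast growth factors (FGFs) and the genes through which they act were compared between 2 cell populations sorted from the mouse otocyst, the epithelial vesicle from which the inner ear forms. The set of 44 genes comprised the ligands and their intracellular relatives, the receptors, receptor adaptors, feedback inhibitors, Ets transcription factors and Flrt membrane proteins. Membership was set by gene name and not by any measured value. A gene was read from the probe sets that name it alone, and 42 of the 44 genes, of 18193 genes read in this way, had such a probe set, 94 probe sets in all. Frs2 and Etv1 had none, so their expression was not analysed here.

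Embryos at E10.5 were heterozygous for the transgene Tg(ETAR-EGFP)14Imeg, and both populations carried it. Otocysts were dissociated with 0.25% trypsin and sorted by EGFP fluorescence with propidium iodide present. Per the labels, EGFP marks mostly ventral and dorsomedial otocyst and is missing from its dorsolateral part. EGFP-positive (EGFP+) cells gave 1 array and EGFP-negative (EGFP-) cells gave 1 array, each made from 1 µg of total RNA. The number of embryos pooled and the element that drives EGFP are not given in the sources used here. Since no array was repeated, the differences below have no replicate check and no p-value, and each is one between these 2 libraries.

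Secreted FGFs bind receptor tyrosine kinases of the Fgfr family together with heparan sulfate on the cell surface, and the receptors signal through Frs adaptors, Ras and the Mapk kinases. The same signal switches on Ets factors of the Etv group and inhibitors that damp it, among them Sprouty, Spred, Dusp6 and Il17rd, so that these genes are commonly read as markers of FGF response. In the ear, Fgf3 and Fgf10 act in the induction of the otic placode, and Fgf10 is later made in the neurosensory part of the otocyst, while Fgf9 is a signal of otic epithelium to the mesenchyme around it.

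Expression is given as the MAS5 signal of a probe set, in arbitrary units on a linear scale, which can be compared between the arrays for 1 probe set but not between probe sets. Signals at or below a floor, the 40th percentile of each array, were treated as not measurable. The floor was 10.4 in the EGFP+ and 12.4 in the EGFP- library. The log2 ratio is that of EGFP+ over EGFP- signal, each raised to its floor, and a gene was counted as higher where the libraries differed at least 2-fold. As a partial measure of error, the log2 ratios of different probe sets of 1 gene had an SD of 0.32 over 5638 genes. With genes grouped by the mean signal of their probe sets, this SD was 0.41 under 50, 0.33 between 50 and 200, and 0.25 above 200. A probe set is set below beside the SD of the group its signal falls in. This SD leaves out the spread between embryos, sorts and arrays.

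Of the 42 genes read, 33 exceeded the floor in 1 library or both, 25 of them in both, and 9 in neither. Fgf9, Fgf10, Fgf18, Spry1 and Il17rd were at least 2-fold higher in EGFP+ cells, and Fgf15, Fgfr3 and Flrt2 were at least 2-fold higher in EGFP- cells. Of the other 25 genes, 19 were measured in both libraries and differed by less than 2-fold. The remaining 6, Fgf1, Fgf8, Fgf14, Fgf16, Fgf20 and Spry4, were at the floor in 1 library, so their ratios are lower bounds that do not limit the difference to 2-fold, and with floors at the 20th percentile Fgf8, Fgf14 and Spry4 passed it. The 5 and 3 of 33 FGF genes stand beside 2.90% and 7.63% of the 13362 genes of the whole array that passed the same floor. Fgf18 and Fgf15 were at the floor in 1 library and entered the count through the library where they were high, and Fgf15 left it when the floor of 12.4 was used for both. Among the 25 genes measured in both libraries, 4 were higher in EGFP+ and 2 in EGFP- cells, beside 2.78% and 5.41% of 11681 genes. With genes at the floor in 1 library taken at their bound, the median log2 ratio of the 33 genes was 0.06, with 18 above 0, beside 50.2% of all genes, and 15 below. At a 1.5-fold limit 9 FGF genes were higher in EGFP+ cells, beside 7.84% of all genes, and 6 in EGFP- cells, beside 14.5%. The median of all genes was 0.00. Ligands, receptors, inhibitors and Flrt genes each held members on both sides of 0.

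**Figure D1:**
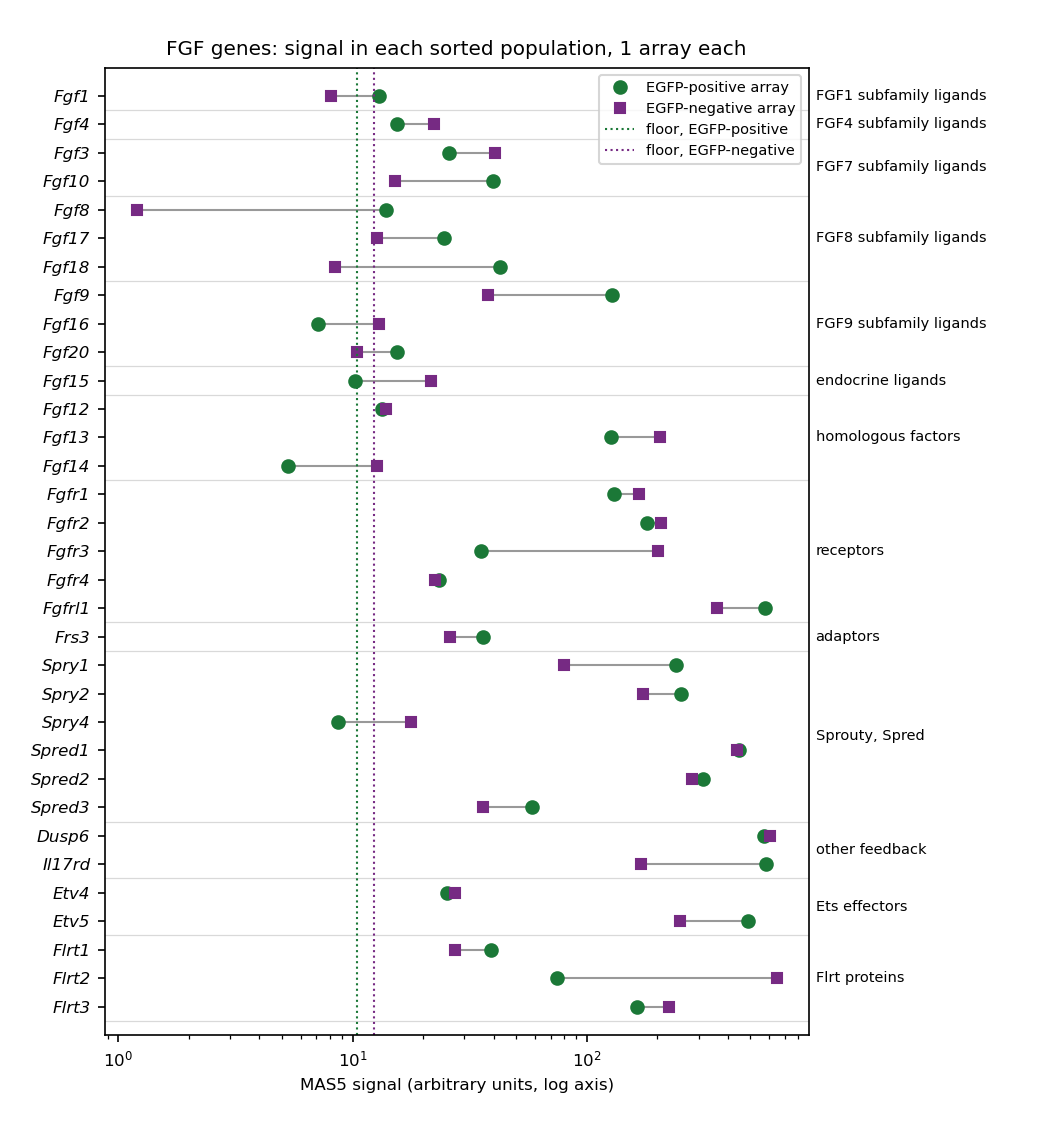
Signal of the brightest probe set of the 33 FGF genes that passed the floor in 1 or both libraries, on a log axis, in the EGFP+ array (green circles) and the EGFP- array (purple squares), ordered by role, with each array's floor as a dotted line. Many ligands lie near the floors, and Fgfr3 and Flrt2 have the widest gaps among genes measured in both arrays.

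The labelled tissue was checked against marker genes. Of 18 measured markers of otic epithelium, 12 were at least 2-fold higher in EGFP+ cells and 1, Hmx2, in EGFP- cells, with a median log2 ratio of 1.30 and summed signals of 13571 and 6696. All 18 were above the floor in both libraries. Marker lists of further cell types lay towards EGFP- cells, and their medians take genes at the floor in EGFP+ cells at their bound. This held at 2-fold for 14 of 16 genes of periotic mesenchyme (median -3.40, summed signal 669.6 against 7525), 8 of 11 of hindbrain neuroepithelium (median -2.42, 86.7 against 2563 over the 12 genes read), 7 of 8 of endothelium (median -1.96, 118.2 against 549.4), 7 of 7 of erythroid cells (median -5.16, 2496 against 14226) and 8 of 8 of leukocytes (median -2.78, 71.6 against 1153). In EGFP+ cells 12 of 16 mesenchymal genes were above the floor, and the signals of all 16 ran from 1.0 for Col1a1 to 135.5 for Col3a1 and 144.7 for Snai2, with a median of 25.9. Of 12 hindbrain genes, 3 were above the floor in EGFP+ cells, and their signals ran from 0.2 for Sox1 to 35.0 for Egr2, with a median of 3.35. Of 7 neural crest and glial genes, 4 were higher in EGFP- cells and 3, Sox10, Kit and Erbb3, in EGFP+ cells (median -1.86, summed signal 2623 against 1631). Of 7 otic neuroblast genes, 2, Neurog1 and Pou4f1, were at least 2-fold higher in EGFP+ cells and none in EGFP- cells (median 0.60, 3097 against 2339). Their log2 ratios were above 0 for 4 genes and below it for 3, Tubb3 (-0.52), Stmn2 (-0.84) and Elavl4 (-0.67). A lower share of a cell type and less RNA per cell cannot be told apart in such bulk samples.

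**Figure D2:**
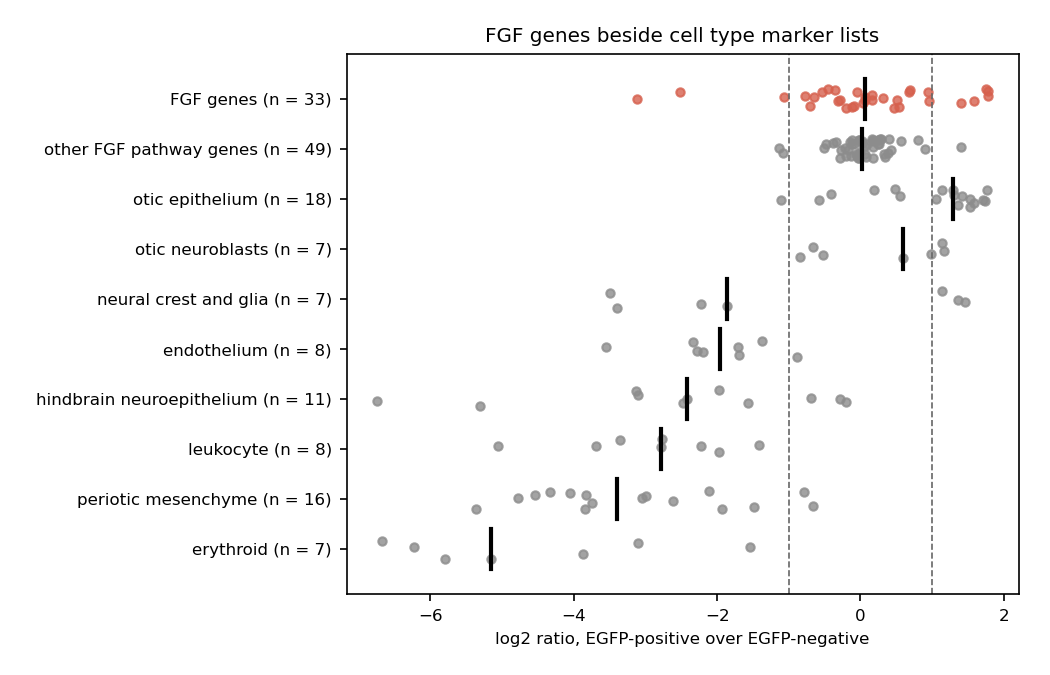
Log2 ratio of EGFP+ over EGFP- signal for the FGF genes (red), other FGF pathway genes and 8 marker lists (grey), 1 point per gene past the floor, at its bound where 1 array is at the floor, with the median as a bar and the 2-fold limits dashed; vertical scatter within a row carries no meaning. The FGF median is 0.06, the otic epithelium median 1.30 and the periotic mesenchyme median -3.40.

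Of the 18 secreted ligands, 11 passed the floor in 1 library or both and 7 were at the floor in both. Of the 11, 3 were at least 2-fold higher in EGFP+ cells and 1 in EGFP- cells. These counts stand beside 2.90% and 7.63% of all genes that passed the floor. A further 3 were measured in both libraries and within 2-fold, and 4 were bounds short of 2-fold. Fgf10, a ligand of the epithelial isoforms of Fgfr1 and Fgfr2, had a signal of 39.8 in EGFP+ and 15.1 in EGFP- cells. It was 2.64-fold higher in EGFP+ cells, a log2 ratio of 1.40 beside a probe set SD of 0.41 at this signal. Its EGFP- signal was close to the floor, and its log2 ratio was 0.09 with floors at the 60th percentile.

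Fgf3, the other ligand of this subfamily that acts in the early ear, pointed the other way within the 2-fold limit. Its brightest probe set read 25.8 in EGFP+ and 40.4 in EGFP- cells, a log2 ratio of -0.65. The other probe sets of Fgf3 were at -0.50 and 0.09, so its probe sets differed in sign. Fgf7 and Fgf22, the remaining members of the subfamily, were at the floor in both libraries by their brightest probe sets, and a second probe set of Fgf7 read 10.8 in EGFP+ and 7.1 in EGFP- cells.

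Fgf9, which founds a subfamily with Fgf16 and Fgf20, had 127.9 in EGFP+ and 37.8 in EGFP- cells and was 3.38-fold higher in EGFP+ cells. Its 2 probe sets disagreed. The dimmer one read 70.5 and 70.1, a log2 ratio of 0.01 against 1.76, and the gap between them was 1.75, above the SD of 0.33 between probe sets at this signal. The median over both was 0.88, short of 2-fold. Fgf20, a ligand of the prosensory domain, had 15.4 in EGFP+ and 10.4 in EGFP- cells, and Fgf16 had 7.1 and 12.9. Each of these was above the floor in 1 library only. Fgf20 stood against the EGFP+ floor of 10.4, and Fgf16 passed the EGFP- floor of 12.4 by a small margin.

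All 3 genes of the Fgf8 subfamily had log2 ratios above 0, and Fgf18 passed 2-fold. Fgf8 and Fgf18 were above the floor in EGFP+ cells only, which nearly fixed the sign of their bounds, so the shared sign carries little weight. Fgf18 had 42.5 in EGFP+ cells and 8.4, below the floor, in EGFP- cells, at least 3.43-fold higher, but its log2 bound was 0.18 with floors at the 60th percentile. Fgf17 had 24.5 and 12.7, 1.93-fold higher in EGFP+ cells, and its EGFP- signal barely exceeded the floor. After quantile normalization of the arrays its log2 ratio was 1.17, past the limit. A second probe set of Fgf17 read 5.0 in EGFP+ and 5.9 in EGFP- cells, below the floor in both. Fgf8, a ligand best known from organizing centres of the embryonic brain and limb, had 13.9 in EGFP+ and 1.2 in EGFP- cells. Since both values lie near or below the floors, its log2 bound was 0.16, but it was 1.63 with floors at the 20th percentile. When ratios were centred on the otic epithelium markers, Fgf18 stayed above 0 at 0.48 and Fgf17 lay below it at -0.35. This centring subtracts 1.30 from every log2 ratio, so any ratio under 1.30 falls below 0 by construction.

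Fgf15, an endocrine FGF that is also made in the embryonic brain, had 10.2 in EGFP+ and 21.7 in EGFP- cells. The EGFP+ signal was below the floor of 10.4 and below 12.3, the highest signal of a control without transcript on that array. The count of Fgf15 as 2-fold higher thus rests on the floor, and its log2 bound was -0.81, short of 2-fold, with a floor of 12.4 for both arrays. Of the hindbrain markers, 8 of 11 were higher in the same library, and their part in the signal of Fgf15 was not tested. Fgf21 and Fgf23, the other endocrine ligands, were at the floor in both libraries.

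The remaining ligands were at or near the floor. Fgf1 had 13.0 in EGFP+ and 8.1 in EGFP- cells, and Fgf4, which acts in the early embryo and limb, had 15.4 and 22.3. The other probe sets of both genes were below the floor in both libraries. Of the 9 genes that passed the floor in neither library, 7 were secreted ligands, namely Fgf2, Fgf5, Fgf6, Fgf7, Fgf21, Fgf22 and Fgf23, and the others were Fgf11 and Spry3. The signals of their brightest probe sets ran from 3.1 to 9.0 in EGFP+ and from 0.8 to 11.9 in EGFP- cells. At this sensitivity these probe sets gave no measurable signal, which does not show that the transcripts were absent, and the second probe set of Fgf7 given above was just over the EGFP+ floor.

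The FGF homologous factors Fgf11 to Fgf14 are not secreted and bind voltage-gated sodium channels inside the cell. Fgf13 was the one well above the floor, with 126.5 in EGFP+ and 205.9 in EGFP- cells, 1.63-fold higher in EGFP- cells. The log2 ratios of its 2 probe sets were -0.70 and -0.14. Fgf12, with 13.4 and 13.9, was within 2-fold. Fgf14 had 5.3, below the floor, in EGFP+ and 12.7 in EGFP- cells, and its log2 bound was -1.26 with floors at the 20th percentile.

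**Figure D3:**
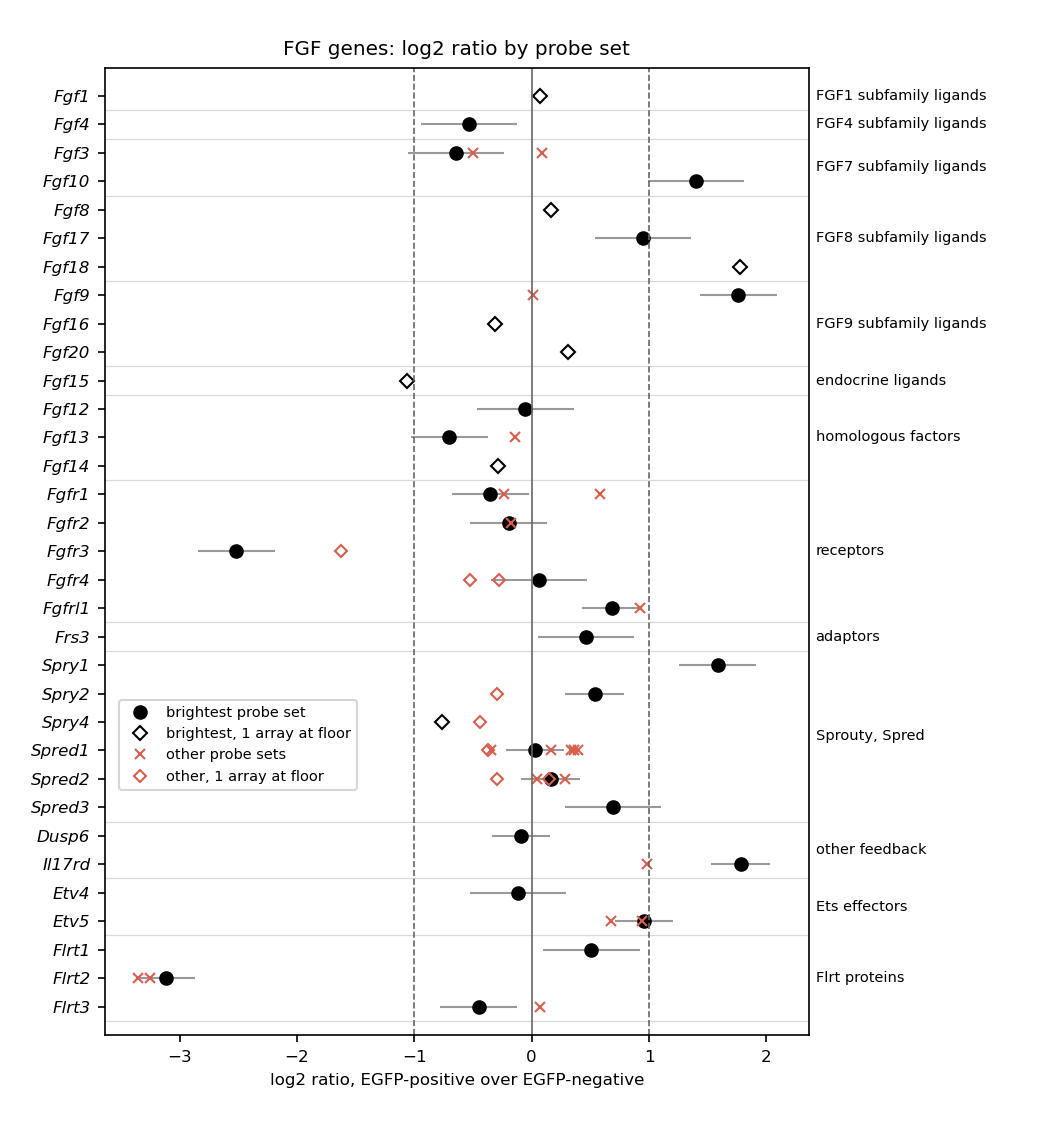
Log2 ratio of EGFP+ over EGFP- signal for each FGF gene above the floor, from its brightest probe set (black circle, or open diamond where 1 array is at its floor) and from its other probe sets above the floor (red crosses, or open red diamonds where 1 array is at its floor). Diamonds are lower bounds on the size of a difference. Grey bars are 1 SD between probe sets of 1 gene at that signal and the dashed lines mark 2-fold; the probe sets of Flrt2, Fgfr2 and Etv5 lie close together, and those of Fgf9 lie 1.75 apart.

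Of the 5 receptor genes, 1 was at least 2-fold different, towards EGFP- cells, beside 7.63% of all genes in that direction. Fgfr3, a receptor of the ventricular zone of the embryonic brain and later of supporting cells of the cochlea, had 35.3 in EGFP+ and 202.2 in EGFP- cells and was 5.73-fold higher in EGFP- cells. Its log2 ratio was -2.52, and a second probe set, with 6.1, below the floor, and 32.1, went the same way. Of the hindbrain markers, 8 of 11 were higher in the same library and 9 of 12 were at the floor in EGFP+ cells. The part of such cells in the signal of Fgfr3 was not tested.

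Fgfr1 and Fgfr2, the main receptors of the otic epithelium and its surroundings, were at similar signals in both libraries. Fgfr2 had 181.1 in EGFP+ and 207.2 in EGFP- cells, a log2 ratio of -0.19, and its second probe set above the floor was at -0.17. Fgfr1 had 130.9 and 167.3, a log2 ratio of -0.35, while its other probe sets were at -0.24 and 0.58. The epithelial and mesenchymal splice forms were not told apart here. Fgfr4 had 23.4 and 22.4, a log2 ratio of 0.06, while 2 dimmer probe sets read 8.5 and 15.0, and 7.8 and 12.6, each below the floor in EGFP+ cells.

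Fgfrl1, an FGF receptor that lacks the kinase domain, was higher in EGFP+ cells by 1.60-fold, at 575.7 against 358.9. Its second probe set gave 246.0 and 129.9, a log2 ratio of 0.92 against 0.68. Each exceeded the SDs of 0.25 and 0.33 between probe sets of genes in the 2 higher signal groups, and neither reached 2-fold. Centring on the otic epithelium markers, which subtracts 1.30 from every log2 ratio, put the first probe set at -0.62. The adaptor gene Frs3, which links receptors to Ras signalling, had 36.0 in EGFP+ and 26.1 in EGFP- cells, a log2 ratio of 0.46.

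The feedback inhibitors and Ets factors, 10 of which were above the floor, held 2 genes past 2-fold in EGFP+ cells and none in EGFP- cells. Over all genes that passed the floor these shares were 2.90% and 7.63%. Il17rd, a transmembrane inhibitor of FGF signalling also called Sef, had 584.1 in EGFP+ and 170.1 in EGFP- cells, 3.43-fold higher. Its second probe set read 53.5 and 27.1, a log2 ratio of 0.98 against 1.78. Spry1, a Sprouty protein that blocks Ras and Mapk signalling, had 239.4 and 79.7, and its only probe set gave a log2 ratio of 1.59 towards EGFP+ cells. The log2 ratios of both genes, 1.78 and 1.59, were above the otic epithelium median of 1.30, and centring on those markers left them at 0.48 and 0.29, short of 2-fold. Single markers of that list ran from -1.11 for Hmx2 to 1.77 for Fbxo2, a spread that holds Spry1 and ends close to Il17rd.

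Neither Spry2 nor Spry4 was counted as 2-fold different. Spry2 had 251.9 in EGFP+ and 173.6 in EGFP- cells, a log2 ratio of 0.54, and a dim second probe set read 8.4, below the floor, and 12.8. Spry4 had 8.7, below the floor, in EGFP+ and 17.7 in EGFP- cells, and a second probe set read 8.5 and 14.1. Spry4 thus pointed away from Spry1, at signals near the floor, and its log2 bound was -1.02 with floors at the 20th percentile.

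The Spred genes, which encode membrane-bound inhibitors of Raf activation, were within 2-fold by their brightest probe sets. Spred1 had 445.1 in EGFP+ and 436.1 in EGFP- cells, and its 6 probe sets measured in both libraries had log2 ratios from -0.35 to 0.39. Spred2 had 313.4 and 280.4, with 3 such probe sets from 0.05 to 0.29. Spred3 had 58.2 and 36.0, 1.62-fold higher in EGFP+ cells.

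Dusp6, which encodes the phosphatase of Erk most often used as a marker of FGF response, was at 570.8 in EGFP+ and 607.4 in EGFP- cells, a log2 ratio of -0.09. Of the Ets factors that act downstream of FGF receptors, Etv5 had 488.3 and 251.2 and was 1.94-fold higher in EGFP+ cells. All 3 of its probe sets went that way, at 0.68, 0.94 and 0.96, each short of 2-fold and each above the SD of 0.25 to 0.33 between probe sets at these signals. Centring on the otic epithelium markers, which subtracts 1.30 from every log2 ratio, put Etv5 at -0.34 by construction. Etv4 was near the lower end of the scale with 25.2 and 27.3. Over all 10 inhibitors and Ets factors above the floor, 7 log2 ratios were above 0 and 3, those of Spry4, Dusp6 and Etv4, below it, beside 50.2% of all genes above 0.

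**Figure D4:**
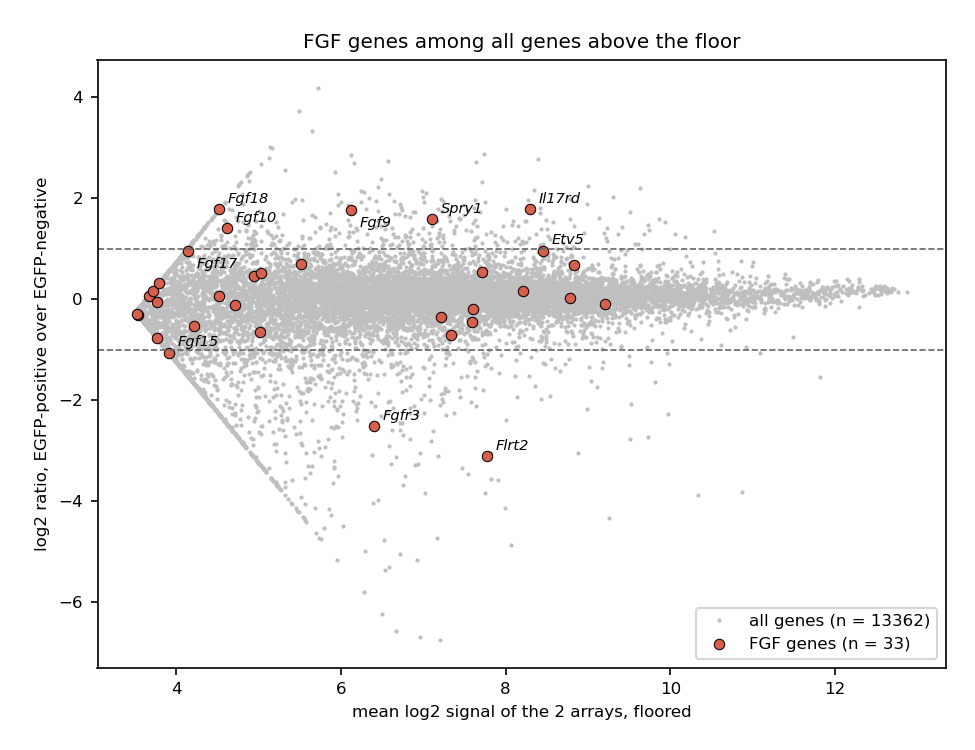
Log2 ratio of EGFP+ over EGFP- signal against the mean log2 signal of both arrays, for the 13362 genes that passed the floor (grey) and the 33 FGF genes (red), with 2-fold limits dashed. The oblique edges at the left are genes at the floor in 1 array, where Fgf18 and Fgf15 lie; Il17rd, Spry1, Fgf9, Fgfr3 and Flrt2 lie away from them.

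Flrt proteins are transmembrane proteins with leucine-rich repeats that bind FGF receptors and also act in cell adhesion and guidance. Flrt2 had the largest difference of the 33 genes, with 74.6 in EGFP+ and 646.1 in EGFP- cells, 8.66-fold higher in EGFP- cells. Its other probe sets read 43.7 and 447.8, and 18.0 and 171.8. All 3 probe sets lay between -3.36 and -3.11. Of the periotic mesenchyme markers, 14 of 16 were higher in the same library and 12 of 16 were above the floor in EGFP+ cells, and their part in the signal of Flrt2 was not tested.

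The related genes did not share this difference at 2-fold. Flrt3 had 164.6 in EGFP+ and 225.2 in EGFP- cells, a log2 ratio of -0.45, and its second probe set was at 0.07. Flrt1 had 39.0 and 27.4, a log2 ratio of 0.51.

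Promoter sequences are shown for the inhibitors past 2-fold in EGFP+ cells, Il17rd and Spry1, and for the receptor and the Flrt gene past 2-fold in EGFP- cells, Fgfr3 and Flrt2. Each is the 250 bases before the most upstream annotated start, 5′ to 3′ on the gene's strand, from RefSeq on GRCm38.p6, and all 4 genes lie on the plus strand. The positions are chr14:27038751-27039000 for Il17rd, chr3:37639697-37639946 for Spry1, chr5:33721474-33721723 for Fgfr3 and chr12:95691976-95692225 for Flrt2. Capitals mark matches on either strand to the Ets core CCGGAA, the letters bound by factors such as Etv4 and Etv5, or to the GC box GGGCGG, bound by Sp factors.
Il17rd: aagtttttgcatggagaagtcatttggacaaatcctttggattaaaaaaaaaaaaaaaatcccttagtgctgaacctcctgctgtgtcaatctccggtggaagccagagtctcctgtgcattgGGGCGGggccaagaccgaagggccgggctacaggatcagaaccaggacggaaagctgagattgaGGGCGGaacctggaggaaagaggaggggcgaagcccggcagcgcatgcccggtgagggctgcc
Spry1: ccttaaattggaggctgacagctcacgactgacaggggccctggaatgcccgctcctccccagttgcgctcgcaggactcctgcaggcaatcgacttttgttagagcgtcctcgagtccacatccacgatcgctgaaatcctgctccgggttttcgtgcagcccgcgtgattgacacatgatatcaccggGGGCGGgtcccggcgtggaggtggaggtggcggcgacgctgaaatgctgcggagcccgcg
Fgfr3: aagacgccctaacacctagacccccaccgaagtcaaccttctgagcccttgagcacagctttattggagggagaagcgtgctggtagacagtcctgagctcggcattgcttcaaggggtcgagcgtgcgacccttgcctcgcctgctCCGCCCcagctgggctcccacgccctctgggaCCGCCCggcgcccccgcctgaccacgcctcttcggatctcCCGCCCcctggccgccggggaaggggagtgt
Flrt2: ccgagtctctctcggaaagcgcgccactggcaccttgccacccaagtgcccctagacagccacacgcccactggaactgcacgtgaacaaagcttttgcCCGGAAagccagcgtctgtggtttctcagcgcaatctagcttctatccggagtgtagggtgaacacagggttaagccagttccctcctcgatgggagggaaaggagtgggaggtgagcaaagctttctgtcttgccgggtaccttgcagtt
Il17rd held 2 GC boxes, Spry1 held 1 and Fgfr3 held 3, and none of these windows held the Ets core. Flrt2 held 1 Ets core and no GC box, and no match overlapped one of the other kind. A promoter sequence was available for 33 FGF genes. These are not the same 33 that passed the floor, since they include genes such as Fgf2, Fgf5 and Frs2. Of them 5, or 15.2%, held the Ets core (Fgf5, Fgfr4, Fgfrl1, Flrt2 and Frs2), beside 15.2% of 17491 protein-coding genes. The GC box was in 21 of the 33, 63.6%, beside 42.7% of all. The median GC content of the windows was 59.6% for the FGF genes and 55.2% for all. A match describes these letters only and says nothing on whether a factor binds there.

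Of 62 further genes for heparan sulfate, co-receptors, signal transduction and negative regulation, 54 had a probe set naming them alone and 49 passed the floor. Of these 49, 1 was at least 2-fold higher in EGFP+ cells and 2 in EGFP- cells, beside 2.90% and 7.63% of all genes, and their median log2 ratio was 0.02, beside 0.00. These values lie near those of all genes and describe the list without setting it apart. The 46 others lay between -0.51 and 0.90.

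Lrig1, a transmembrane inhibitor of receptor tyrosine kinases, had 159.3 in EGFP+ and 60.5 in EGFP- cells, 2.63-fold higher in EGFP+ cells. Pea15a, which holds Erk in the cytoplasm, had 150.4 and 319.1, 2.12-fold higher in EGFP- cells. Fgfbp3, a secreted carrier of FGFs, had 27.0 and 59.6, 2.21-fold higher in EGFP- cells.

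All 20 measured adaptors and signalling enzymes between the receptor and Mapk were within 2-fold, from -0.51 for Shc1, an adaptor, to 0.43 for Sos1, an exchange factor that activates Ras. Of 20 measured genes for heparan sulfate, its core proteins and FGF carriers, 19 were within 2-fold. The highest of them were Sulf1, a sulfatase that trims heparan sulfate and dampens FGF binding, with 951.0 in EGFP+ and 509.9 in EGFP- cells, and the glypican gene Gpc1 with 567.0 and 323.3. The klotho genes Kl and Klb, co-receptors of the endocrine FGFs, were at the floor in both libraries, as were Fgf21 and Fgf23.

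**Figure D5:**
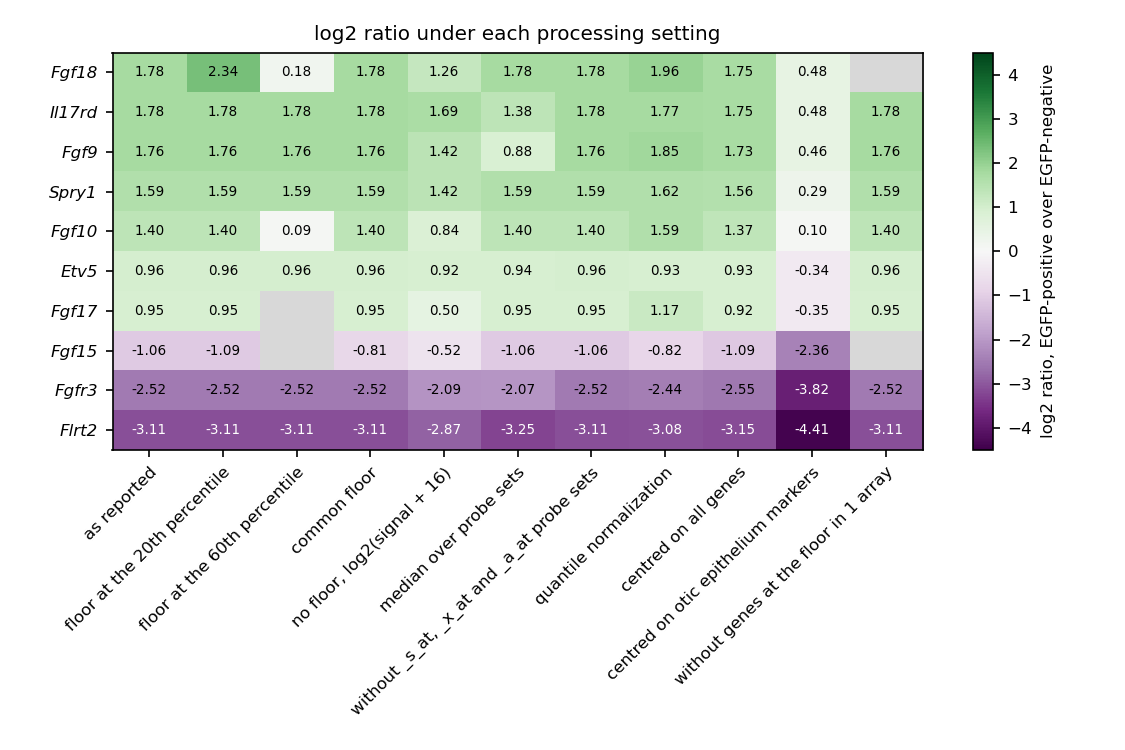
Log2 ratio of EGFP+ over EGFP- signal for the 8 FGF genes past 2-fold and for Etv5 and Fgf17, as reported and under 10 other processing settings; grey cells have no value because the gene was at the floor. Fgfr3 and Flrt2 stay past 2-fold in every column, and Fgf10 and Fgf18 approach 0 where the floor is at the 60th percentile. Centring on the otic epithelium markers lowers every value by 1.30, which puts Etv5 and Fgf17 below 0. Columns that set another floor cannot move Fgfr3, Flrt2, Spry1 or Il17rd, which lie above every floor used.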

How the data were processed

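MAS5 signals of 2 arrays were analysed, 1 of EGFP-positive (EGFP+) and 1 of EGFP-negative (EGFP-) otocyst cells. The deposited values are intensities on a linear scale, 1 per probe set for 45101 probe sets, made with MAS5, version 5.0, per the submitters' processing notes. MAS5 merges the probe pairs of a probe set and scales each array by a constant, and in both columns the mean without the lowest and highest 2% of values was 100.0. The other steps are not given in the sources used here. Detection calls and scanner files were not used here.

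Probe sets were named from the platform annotation, with symbols updated by gene identifier in RefSeq's GRCm38.p6 table. A single gene was named by 34958 probe sets and several genes by 932, which were not used, while 9211 had no name here. Each gene was represented by the probe set with the highest mean signal. Other probe sets of a gene that were at the floor in both libraries are not all given in the text. Floors, ratios and counts are as described above, computed in Python 3.11.15 with pandas 2.3.3 and numpy 2.4.6 and tested on simulated data. The highest of 27 bacterial control probe sets without added transcript read 12.3 in the EGFP+ and 9.0 in the EGFP- library. For FGF genes with an EGFP+ signal at or below 12.3 both signals are given with no fold, and any log2 value is a bound against the floor. The 6 probe sets for the bioB hybridisation control reached 4.7 and 6.9, below the floors. The 12 probe sets for the other hybridisation controls had a median log2 ratio of 0.25 towards the EGFP+ library, and the ratios were not corrected for it. The number of arrays limits the precision.

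The genes, gene lists and alternatives were chosen with earlier results of these data known. Every FGF gene above the floor is named, and of the other lists those at least 2-fold different that a result turns on. Shc1, Sos1, Sulf1, Gpc1, Tubb3, Stmn2 and Elavl4 were chosen after their values were seen. Alternatives covered the floor, the probe set, the scaling, the fold limit and genes at the floor.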

Additional observations from a re-analysis of the deposited data

How the results depend on the processing

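Fgfr3 and Flrt2 were past 2-fold in EGFP- cells under all 10 other settings, with log2 ratios from -3.82 to -2.07 and from -4.41 to -2.87. Spry1 and Il17rd were past 2-fold in EGFP+ cells under 9 of 10 each, the exception being the epithelial centring given below, which ended the call of all 5 such genes. Fgf9 passed under 8 of 10, failing also with the median over its probe sets (0.88), and Fgf10 under 7 of 10, failing also with the 60th percentile floor (0.09) and with log2(signal + 16) (0.84). Fgf18 passed under 7 of 9 and Fgf15 under 5 of 8. None of the 8 genes past 2-fold changed sign in these settings. For Fgfr3, Flrt2, Spry1 and Il17rd, several settings could not alter the call. Their brightest probe sets lay above every floor used and were not of the _s_at, _x_at or _a_at kinds. Other floors, leaving out genes at the floor and leaving out those kinds thus returned the same log2 ratio. Fgf10, Fgf15, Fgf18 and Spry1 have 1 probe set each, so the median over probe sets could not move them. Leaving out those kinds could not move Fgf9, Fgf10, Fgf15 or Fgf18 either. Fgf10 also stayed at 1.40 with the 20th percentile floor and with a floor of 12.4 for both arrays, since it lay above both. The passes counted here are thus not independent checks. The counts of FGF genes higher in EGFP+ and in EGFP- cells were 9 and 6 at a 1.5-fold limit, beside 7.84% and 14.5% of all genes. With the floor at the 60th percentile 3 of 21 were higher in EGFP+ cells, beside 2.31% of all genes, and at the 20th percentile 5 of 41 were higher in EGFP- cells, beside 11.8%. Centring on the otic epithelium markers lowers every log2 ratio by 1.30, and by that construction 0 FGF genes were then 2-fold higher in EGFP+ and 20 of 33 in EGFP- cells, beside 0.16% and 80.9% of all genes, the median was -1.24, and Fgf9, Fgf10, Fgf18, Spry1 and Il17rd stood at 0.46, 0.10, 0.48, 0.29 and 0.48. For the other pathway genes this setting gave 0 and 40 of 49. Their count in EGFP+ cells was 3 of 49 at 1.5-fold and 0 without probe sets of the _s_at, _x_at and _a_at kinds. Over all genes these shares were 7.84% and 2.79%. Their count in EGFP- cells was 1 with the 60th percentile floor, with log2(signal + 16) and with quantile normalization. The shares of all genes in that direction were 4.65%, 4.84% and 6.16%. Quantile normalization moved the share of 2-fold calls over all genes that lie in EGFP+ cells from 27.6% to 37.9%, at 503 and 823 genes. The cause of these changes was not tested. No paired analysis was possible because each population has 1 array, and no replicate could be left out. Low signal limits most ligands.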
